A study of Homo sapiens with 118 samples.

Results

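The cytochrome P450 family 4 was followed in HepaRG cells exposed to histone deacetylase inhibitors. The genes were those of the liver fatty acid hydroxylases and their closest relatives, namely CYP4A11, CYP4A22, CYP4F2, CYP4F3, CYP4F11, CYP4F12, CYP4F22, CYP4V2 and CYP4X1. All rows of the count table that carry these 9 symbols were taken, which gave 10 of the 22069 probe rows, since CYP4F12 has 2 probes. HepaRG is an established cell line from a single human liver tumor, labelled as liver progenitor cells and used here after differentiation. The cells received vorinostat, valproic acid, trichostatin A, apicidin, mocetinostat, panobinostat, scriptaid or tacedinaline for 72 hours, with daily renewal. Each of the 8 chemicals was tested at 5 concentrations, C1 (lowest) to C5 (highest), in 118 libraries, with 3 libraries per group from HepaRG batches 1, 2 and 3. Batch 3 was missing from C3 of panobinostat and from C4 of trichostatin A, which left 2 libraries. Transcripts were counted with TempO-Seq, in which a pair of short probes is ligated on its target and the ligated pairs are sequenced. Solvent controls were not used here, so every change is relative to C1 of the same chemical, and all groups, C1 included, carry an inhibitor.

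From C1 to C5 the concentrations ran from 0.041722 to 0.86 µM for apicidin, from 0.177222 to 3.9 µM for mocetinostat and from 0.001468 to 0.084 µM for panobinostat. They ran from 4.94 to 94.5 µM for scriptaid, from 1.143333 to 44.0 µM for tacedinaline, from 0.018811 to 1.5237 µM for trichostatin A and from 0.404778 to 23.5 µM for vorinostat. The dose labels of valproic acid ran from 100.478 to 3038, and their unit is open, because the protocol gives smaller numbers in µM. Libraries of scriptaid, tacedinaline and vorinostat were on plate E and the others on plate H, so each chemical was compared within its own plate.

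CYP4 enzymes sit in the endoplasmic reticulum and add a hydroxyl group to the far (omega) end of fatty acids, a position that most other P450 enzymes do not favour. The omega-hydroxy fatty acid is then oxidised by alcohol and aldehyde dehydrogenases to a dicarboxylic acid, which is shortened in peroxisomes. In liver, CYP4A enzymes are known as targets of the lipid-sensing receptor PPAR-alpha, and CYP4F enzymes also inactivate eicosanoids and shorten the side chains of vitamins E and K. The genes lie in groups: CYP4A11, CYP4X1 and CYP4A22 are near each other on chromosome 1, CYP4F22, CYP4F3, CYP4F12, CYP4F2 and CYP4F11 lie on chromosome 19, and CYP4V2 stands apart on chromosome 4, next to the coagulation genes KLKB1 and F11.

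Promoter sequences are shown for CYP4V2 and CYP4F22, which fell in the most chemicals among the members with many counts. They are also shown for the neighbours CYP4F2 and CYP4F11, whose log2 changes at C5 had opposite signs in tacedinaline and vorinostat. CYP4F11 was called at C5 in neither of these chemicals. Each run holds the 250 bases before the start of the gene, 5′ to 3′ on the gene's strand, from RefSeq on GRCh38.p14. Capitals mark matches, on either strand, of motifs that were searched by their letters. These were the nuclear receptor motif with the letters AGGTCA, the CCAAT box, the TATA box with the letters TATAAA, the GC box with the letters GGGCGG and the HNF1 motif with the letters GTTAAT. None of these matches overlapped in the runs shown.
CYP4V2 (chr4:186191317-186191566, plus strand): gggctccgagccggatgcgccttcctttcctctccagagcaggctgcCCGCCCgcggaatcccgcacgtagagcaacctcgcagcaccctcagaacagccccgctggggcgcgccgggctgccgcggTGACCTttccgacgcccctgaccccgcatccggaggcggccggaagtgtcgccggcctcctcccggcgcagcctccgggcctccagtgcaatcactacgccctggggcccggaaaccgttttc
CYP4F22 (chr19:15508275-15508524, plus strand): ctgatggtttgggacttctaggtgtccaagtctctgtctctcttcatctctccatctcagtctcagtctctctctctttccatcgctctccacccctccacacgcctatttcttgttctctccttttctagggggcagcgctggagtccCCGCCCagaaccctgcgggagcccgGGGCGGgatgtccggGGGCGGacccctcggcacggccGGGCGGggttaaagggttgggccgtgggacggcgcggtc
CYP4F2 (chr19:15898075-15898324, minus strand): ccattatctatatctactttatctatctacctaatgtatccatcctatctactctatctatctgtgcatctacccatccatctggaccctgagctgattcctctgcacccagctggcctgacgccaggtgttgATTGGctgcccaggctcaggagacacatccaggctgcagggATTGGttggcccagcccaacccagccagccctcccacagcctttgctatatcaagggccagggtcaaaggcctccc
CYP4F11 (chr19:15934868-15935117, minus strand): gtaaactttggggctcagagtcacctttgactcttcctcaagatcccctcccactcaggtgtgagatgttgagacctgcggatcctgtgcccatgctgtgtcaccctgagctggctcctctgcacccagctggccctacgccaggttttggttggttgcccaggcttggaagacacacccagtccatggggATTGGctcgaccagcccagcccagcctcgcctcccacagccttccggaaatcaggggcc
The CYP4V2 run held 29 CpG dinucleotides and the CYP4F22 run 17, against a median of 11 over the 35116 runs of the same length in the table. The CYP4F2 run held 1 and the CYP4F11 run 5. A second RefSeq start of CYP4F11, not shown, had 0 CpG and 1 CCAAT match in its run. The AGGTCA motif occurred once in the CYP4V2 run and in 12.1% of all runs, and the GC box occurred once in CYP4V2 and 4 times in CYP4F22, against 42.6% of all runs with a match. The CCAAT box occurred 2 times in CYP4F2 and once in CYP4F11, and in 32.0% of all runs. TATAAA and GTTAAT, found in 10.7% and 6.23% of all runs, had no match in these letters. Of the 9 members, 6 had an entry.

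Total counts ranged from 1061359 to 5250260 per library, with a median of 3702007, and the fewest counts were in vorinostat C5. Markers of hepatocytes were high at C1, where albumin (ALB) had a median of 22400 CPM (counts per 1000000, on the library scale of each fit) over 24 libraries. Of the cholangiocyte markers, EPCAM was at 0 in all of them, the KRT7 probes had medians of 0.0 and 1.06 CPM, and the KRT19 probes 11.3 and 36.1 CPM. The C1 library of trichostatin A from batch 3 stood apart, with the summed CPM of 12 hepatocyte markers at 20500 there and up to 89400 in the other C1 libraries of that chemical. Scriptaid C4 batch 3 also differed from its group. Both libraries were kept in the fits unless stated, and they are named beside some of the values that rest on them.

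At C5, 30 of the 65 tests of a member row were called, and all 30 were lower than C1. A row was called when its adjusted p (edgeR quasi-likelihood F test, Benjamini-Hochberg over 11631 to 13104 rows per chemical) was under 0.05 and its fold change at least 1.5. The number that fell was 5 of 8 rows tested in apicidin, 5 of 8 in mocetinostat, 2 of 9 in panobinostat, 6 of 8 in scriptaid, 5 of 7 in tacedinaline, 0 of 8 in trichostatin A, 3 of 9 in valproic acid and 4 of 8 in vorinostat. Among all rows tested in the same fits, 15.0%, 15.7%, 9.46%, 17.0%, 20.1%, 0.0154%, 6.22% and 24.9% fell, in that order of chemicals. No member row rose, while 13.8%, 14.8%, 6.77%, 12.8%, 18.7%, 0.0%, 4.84% and 22.7% of all rows did. Without adjustment, 2 of the 65 member tests were higher at p under 0.05 in edgeR, and DESeq2 called 31 falling and 0 rising.

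**Figure D1:**
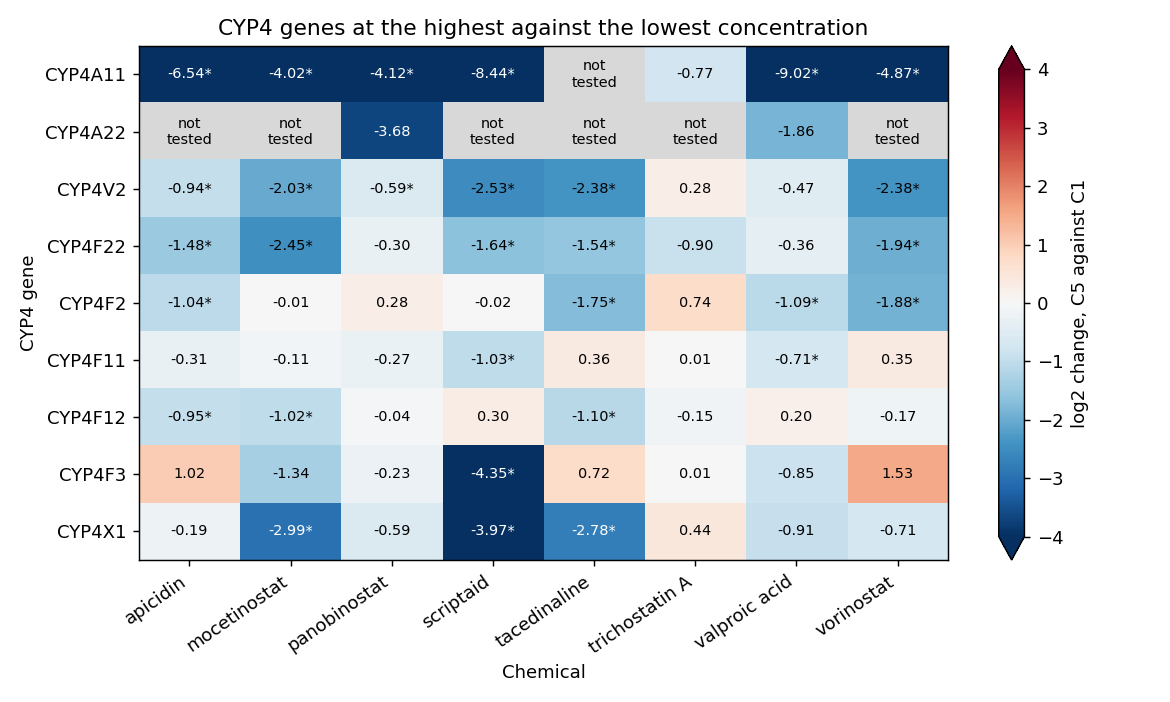
Log2 change at C5 against C1 for the 9 CYP4 genes (rows) in the 8 chemicals (columns), from edgeR, with * for adjusted p under 0.05 and a fold of at least 1.5, grey for rows removed by the filter on low counts, and the colour scale ending at -4 and 4. All starred values are negative, CYP4A11 has the lowest value in 6 of the 7 chemicals where it was tested, and the trichostatin A column has no star. The CYP4A11 values of scriptaid and valproic acid rest on C5 groups without a count and are fitted values, not bounds, and the second CYP4F12 probe was not tested in any chemical and is left out.

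The median log2 change of the member rows at C5 was -0.94 in apicidin, -1.69 in mocetinostat, -0.30 in panobinostat, -2.09 in scriptaid, -1.54 in tacedinaline, 0.01 in trichostatin A, -0.85 in valproic acid and -1.30 in vorinostat. The median over all rows tested lay between 0.0 and 0.08 in each of these fits. These member medians cover only rows that passed the filter, and they are the same with CYP4A11 at its bound in scriptaid and valproic acid, where it stays the lowest row.

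Calls spread over the members with concentration. At C2 none of the 65 tests was called in edgeR, with 9 at an unadjusted p under 0.05 (4 lower and 5 higher), while DESeq2 called 1 lower and 1 higher. Over all rows of the 8 chemicals, 0.0206% fell and 0.0659% rose at C2. At C3, 6 of 65 fell and 0 rose, beside 3.16% and 2.82% of all rows. At C4, 21 of 65 fell and 0 rose, beside 8.14% and 7.85%. By trend, the slope on log2 concentration expressed as the fitted change from C1 to C5, 26 of 65 fell and 1 rose, beside 12.7% in each direction. The 26 include CYP4A22 in panobinostat, which passed the filter through its C1 and C2 libraries. The calls at C3 were CYP4A11 in apicidin, mocetinostat and vorinostat, CYP4V2 in mocetinostat and tacedinaline, and CYP4F22 in mocetinostat.

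CYP4A11, the main omega-hydroxylase of medium-chain fatty acids in liver and also a source of hydroxylated arachidonic acid, fell in 6 of the 7 chemicals in which it was tested. In apicidin the C1 libraries held 18.5, 4.45 and 7.43 CPM in batches 1, 2 and 3, and the C5 libraries 0.249, 0.0 and 0.0. In valproic acid the values were 15.2, 13.2 and 20.6 CPM at C1 and 0 in all 3 libraries at C5. In scriptaid they were 17.3, 16.0 and 11.3 CPM at C1 and again 0 in all 3 at C5. The groups did not overlap in any of these chemicals. Counts at C5 were so low that the size of the decrease is given from counts summed over each group. Where C5 held no count, the level was at least 66.5-fold lower in valproic acid and at least 36.8-fold lower in scriptaid, with 3 counts over the group as the floor, a level of 0.248 and 0.404 CPM.

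In apicidin the group sums were 142 counts at C1 and 1 at C5, a ratio of 133 (exact 95% interval 23.4 to 5280). In mocetinostat they were 44 and 2, a ratio of 19.3 (5.03 to 164), and in vorinostat 74 and 1, a ratio of 38.6 (6.72 to 1550). These intervals and floors express counting error alone, as PCR copies of a molecule were not told apart. In panobinostat the libraries at C5 held 1.09, 0.0 and 1.06 CPM, against 16.5, 10.9 and 10.3 at C1, and the log2 change was -4.12 ± 0.73 (SE, adjusted p = 0.000336). In tacedinaline the filter removed the row, with 34 counts over the C1 group and 0 at C5. That put C5 at least 9.18-fold lower, without a test in the filtered fit. Mocetinostat had the fewest counts at C1 among the called chemicals, and there the call was lost when any of the 3 batches was left out (adjusted p up to 0.157).

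The lowest concentration at which CYP4A11 was called differed among the chemicals. It was C3 in apicidin (0.3755 µM), mocetinostat (1.595 µM) and vorinostat (3.643 µM). In mocetinostat C3 all 3 libraries were at 0, at least 14.0-fold below C1, whereas the C2 libraries held 8.15, 1.13 and 2.45 CPM. It was C4 in panobinostat (0.03963 µM) and valproic acid and C5 in scriptaid. In apicidin the 3 libraries at C2 already held 1.17, 1.11 and 2.79 CPM, each under every C1 library, with no call. In trichostatin A the C5 libraries held 7.74, 5.71 and 6.29 CPM, between the C1 libraries of batches 1 and 2 (21.6 and 11.3 CPM) and that of batch 3 (0.283 CPM). The log2 change was -0.77 ± 0.68 (adjusted p = 0.767), and without the batch 3 library at C1 it was -1.34 ± 0.42 (adjusted p = 0.15).

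**Figure D2:**
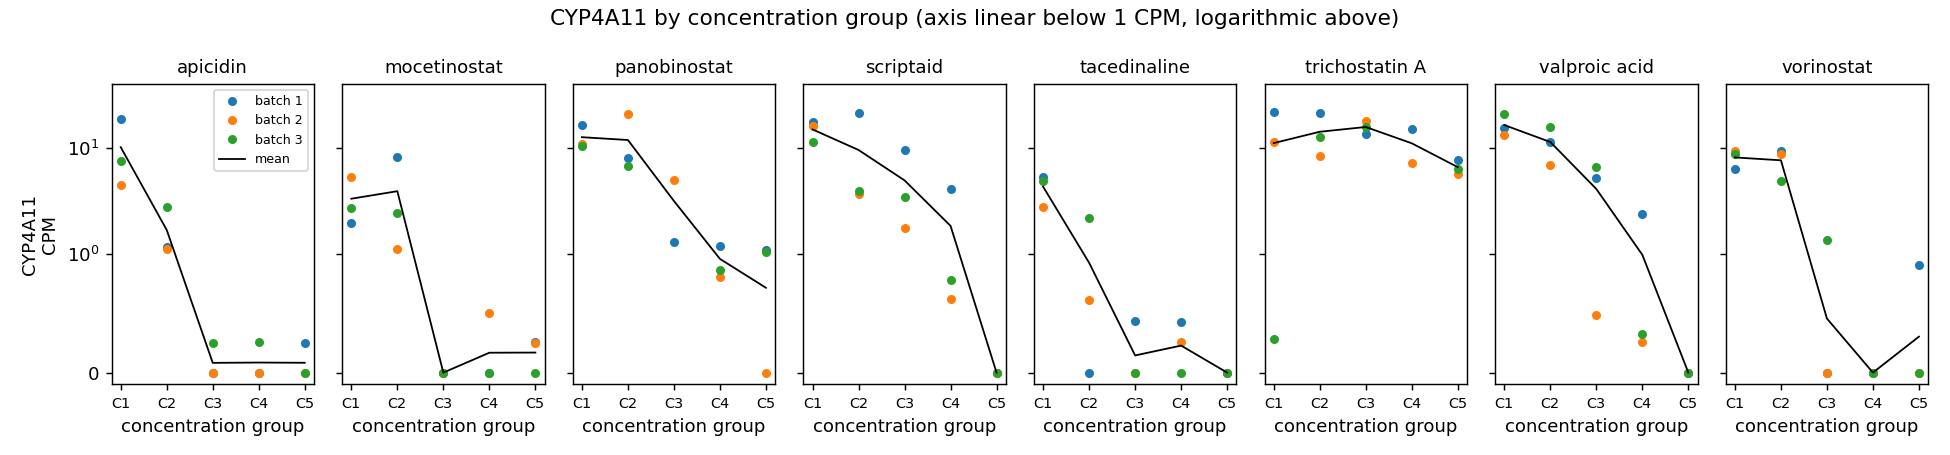
CYP4A11 in CPM (axis linear below 1 and logarithmic above) by concentration group in each chemical, with a point per library coloured by HepaRG batch and a line through the group means. The C5 points of scriptaid, tacedinaline and valproic acid all lie at 0, and the C1 point of batch 3 in trichostatin A lies at 0.283, far under the other C1 points.

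CYP4A22, the near-identical neighbour of CYP4A11 whose enzyme is thought to be little active, was close to the detection limit. Its highest count in any library was 15, and 58 of the 118 libraries held none. It passed the filter in panobinostat and valproic acid only. In panobinostat its highest libraries were C1 of batch 1 (3.17 CPM) and C2 of batch 2 (2.9 CPM). No library of C3 to C5 there held more than 1 count. A row that passes the filter through its low concentrations can hardly be called but as falling, so its trend call is a description. In panobinostat the group sums were 20 counts at C1 and 1 at C5, a ratio of 18.4 (exact 95% interval 2.94 to 762). The C1 counts were 15, 4 and 1 in batches 1, 2 and 3, so most came from batch 1. The C5 change there was not called (log2 -3.68 ± 1.5, adjusted p = 0.0984), but the trend was (log2 -4.24 ± 1.21, adjusted p = 0.0146). The trend call was lost without batch 1 (adjusted p = 0.29) or batch 2 (0.0737). In valproic acid the C5 libraries held 0, 5 and 0 counts, with no call at C5 or by trend. Reads of the CYP4A11 and CYP4A22 probes may be shared between these paralogs, so the split between them is uncertain.

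CYP4V2, which hydroxylates medium-chain and polyunsaturated fatty acids and is mutated in Bietti crystalline dystrophy of the retina, fell at C5 in 6 of 8 chemicals. In tacedinaline the libraries of batches 1, 2 and 3 held 363, 405 and 290 CPM at C1 and 65.9, 87.7 and 48.6 CPM at C5. In vorinostat they held 377, 411 and 321 CPM at C1 and 70.2, 82.7 and 59.3 CPM at C5. All 3 batches were lower and the groups lay far apart in both. The log2 change was -2.38 ± 0.19 in tacedinaline (adjusted p = 4.4e-14) and -2.38 ± 0.17 in vorinostat (adjusted p = 1.93e-13), a 5.20-fold decrease in each. In mocetinostat the mean went from 344 ± 20 to 83.9 ± 8.67 CPM (SD, n = 3 each), with a log2 change of -2.03 ± 0.21 and an adjusted p of 2.24e-06 in edgeR. In apicidin the 3 C5 libraries held 147, 155 and 156 CPM, against 329, 282 and 270 at C1 (log2 -0.94 ± 0.16, adjusted p = 0.000118).

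In scriptaid CYP4V2 held 75.1, 76.7 and 21.9 CPM at C5 and 291, 313 and 405 CPM at C1, the change being -2.53 ± 0.39 on the log2 scale (adjusted p = 9.76e-05). Batch 3 was the lowest library at C5 and the highest at C1 and C4 of that chemical (405 and 397 CPM). In panobinostat the decrease was just at the fold threshold (log2 -0.59 ± 0.15, adjusted p = 0.00691), and 7 of 9 alternative settings left it uncalled, with adjusted p between 0.00124 and 0.0967. In valproic acid CYP4V2 was called at C4 (log2 -0.70 ± 0.15) but at C5 was under the fold threshold (log2 -0.47 ± 0.15, adjusted p = 0.0421). In trichostatin A it held 333, 237 and 319 CPM at C5 and 250, 325 and 157 at C1, with overlapping groups. The 157 CPM came from the C1 library of batch 3. The log2 change at C5 was 0.28 ± 0.21, and 0.04 ± 0.16 without that library, with no call in either fit.

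The steps between concentrations were ordered in several chemicals. In vorinostat the means were 369 ± 45.4, 325 ± 37.6, 249 ± 30.6, 145 ± 24.5 and 70.7 ± 11.7 CPM from C1 to C5 (SD, n = 3 each). In tacedinaline they were 353 ± 58.5, 352 ± 51.4, 221 ± 14.4, 95.3 ± 23.0 and 67.4 ± 19.6 CPM. The C2 means differed from C1 by less than the C1 spread in tacedinaline. The fitted change over the concentrations was -2.23 ± 0.25 in vorinostat and -2.49 ± 0.26 in tacedinaline on the log2 scale.

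CYP4F22, known as the omega-hydroxylase of ultra-long-chain fatty acids that go into the acylceramides of the skin barrier, fell at C5 in 5 of 8 chemicals. In mocetinostat its libraries held 321, 425 and 430 CPM at C1, 452, 534 and 407 at C2 and 78.0, 70.8 and 66.4 at C5. The log2 change at C5 was -2.45 ± 0.21 (adjusted p = 2.69e-07), and the C3 and C4 changes were also called. In apicidin the values were 201, 173 and 175 CPM at C1 and 69.8, 58.9 and 68.7 at C5 (log2 -1.48 ± 0.17, adjusted p = 9.57e-07). In both chemicals every C5 library lay under every C1 library.

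The course of CYP4F22 in tacedinaline and vorinostat was not a steady decrease. In tacedinaline the libraries held 263, 312 and 322 CPM at C1, 403, 401 and 523 at C2 and 390, 441 and 377 at C3, all C2 and C3 values being above those at C1, without a call at either. They then held 261, 173 and 164 CPM at C4 and 101, 94.4 and 114 at C5, and the C5 change was -1.54 ± 0.16 on the log2 scale (adjusted p = 1.35e-10). In vorinostat the C4 libraries, with 150, 115 and 179 CPM, overlapped those at C1 (153, 191 and 167 CPM), and the C5 libraries held 38.3, 37.7 and 57.4 CPM. That C5 change was -1.94 ± 0.23 (adjusted p = 9.49e-09). In scriptaid the C5 change of CYP4F22 was -1.64 ± 0.38 (log2, adjusted p = 0.0033), while C4 batch 3, with 419 CPM, was its highest library.

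In panobinostat and valproic acid CYP4F22 was not called at C5 (log2 -0.30 ± 0.21 and -0.36 ± 0.17). In trichostatin A all 3 batches were lower at C5, with 148, 122 and 130 CPM against 193, 241 and 314 CPM at C1. The change of -0.90 ± 0.19 had an adjusted p of 0.167 in edgeR, and 2 of all 12993 rows were called in that comparison. It was called in DESeq2 (adjusted p = 0.0135) and without the filter on low counts (0.00315). With the C1 library of batch 3 left out, the C5 change was -0.71 ± 0.18 (adjusted p = 0.0563) and the trend was called (log2 -0.74 ± 0.16, adjusted p = 0.0259). It was the row behind the 1 unadjusted p under 0.05 among the 8 member rows of trichostatin A at C5.

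**Figure D3:**
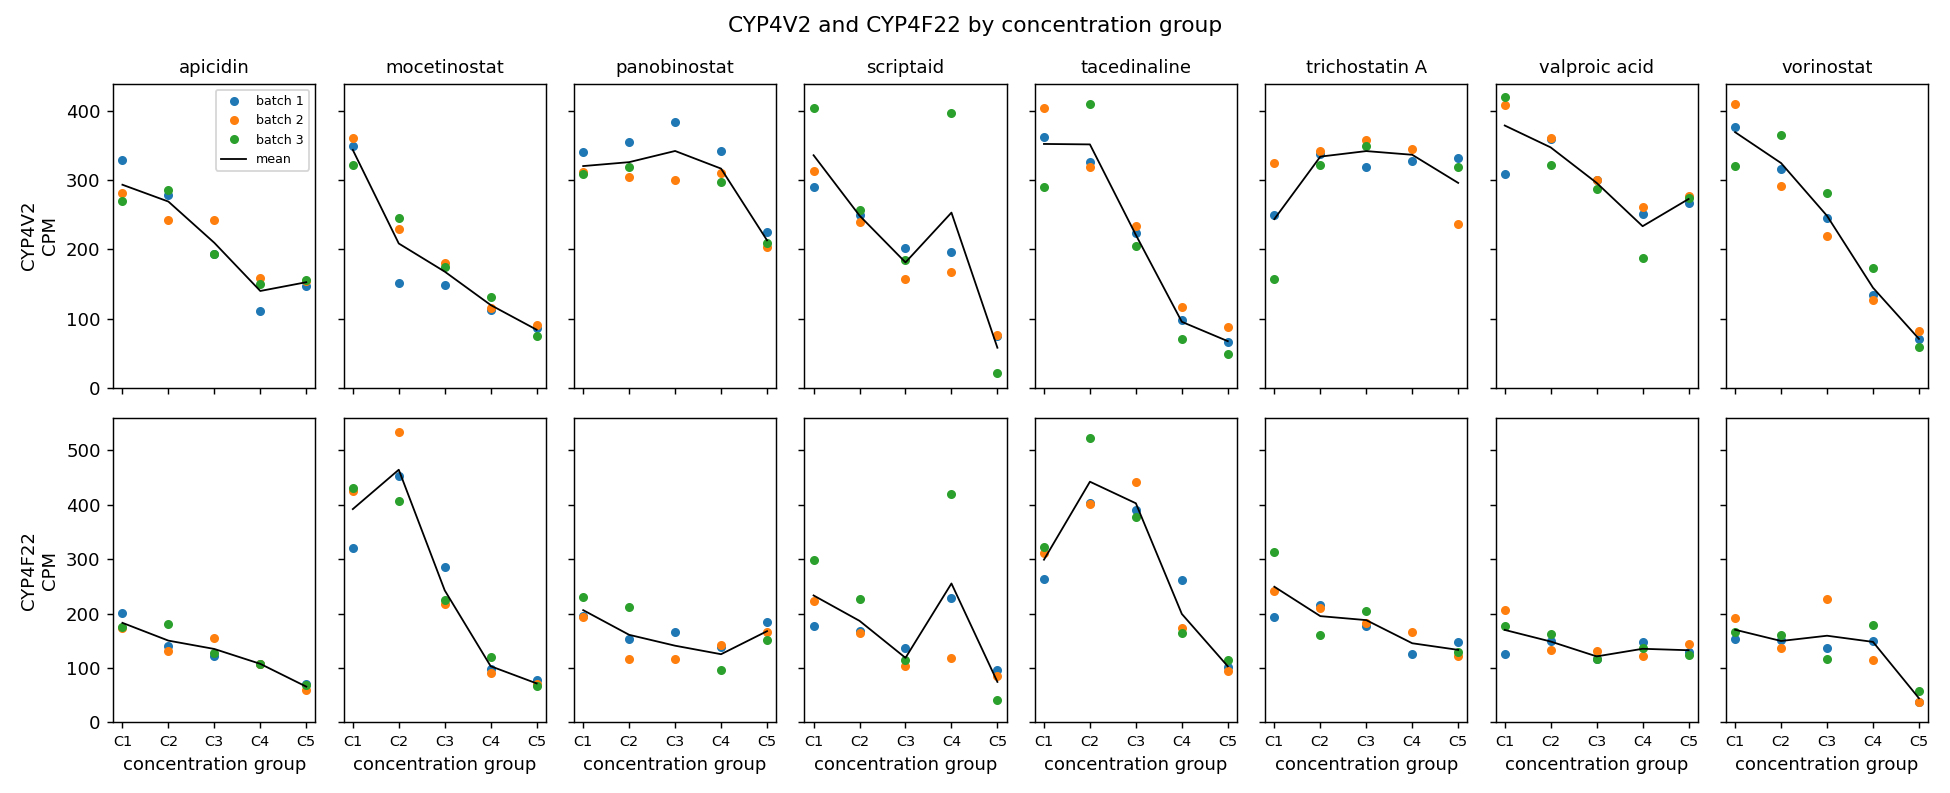
CYP4V2 (top) and CYP4F22 (bottom) in CPM by concentration group in each chemical, with a point per library coloured by HepaRG batch and a line through the group means. CYP4V2 lies under C1 from C2 on in mocetinostat and from C3 on in apicidin, tacedinaline, valproic acid and vorinostat. In trichostatin A it stays between 157 and 358 CPM, the lowest value being the C1 library of batch 3. CYP4F22 in tacedinaline is above C1 at C2 and C3 before it goes down.

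CYP4F2, which hydroxylates arachidonic acid and vitamins E and K, fell at C5 in apicidin, tacedinaline, valproic acid and vorinostat. In vorinostat the libraries held 51.7, 63.9 and 45.3 CPM at C1 and 6.38, 21.5 and 13.7 at C5 (log2 -1.88 ± 0.33, adjusted p = 1.13e-05). In tacedinaline they held 80.7, 106 and 69.3 CPM at C1 and 27.2, 24.8 and 24.3 at C5 (log2 -1.75 ± 0.24, adjusted p = 1.02e-07). Every C5 library was under every C1 library in both. The changes in apicidin (log2 -1.04 ± 0.37, adjusted p = 0.038) and valproic acid (log2 -1.09 ± 0.23, adjusted p = 0.00224) were smaller, and both lost the call when batch 2 was left out, with adjusted p of 0.179 and 0.0696; that in apicidin also lost it without batch 3 (0.089).

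In mocetinostat CYP4F2 had its highest levels in the middle of the range. The libraries held 118, 82.0 and 97.7 CPM at C1, 302, 328 and 108 at C2, 247, 159 and 172 at C3 and 113, 74.3 and 108 at C5. The C2 value of batch 3 lay within the C1 range, and the log2 change at C2 was 1.31 ± 0.34, adjusted p = 0.0921, not called. All C3 libraries were above C1, again with no call (log2 0.95 ± 0.34, adjusted p = 0.0833). At C5 the change was -0.01 ± 0.34. With batch 3 left out, a setting added after these values were seen, the log2 change at C2 was 1.65 ± 0.31 for CYP4F2. It was -1.76 ± 0.44 for CYP4F11 and -0.90 ± 0.26 for CYP4V2. As the batch was chosen with its C2 value known, this setting describes the remaining libraries and is no test.

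CYP4F11, an enzyme of hydroxy fatty acids and vitamin K whose gene is next to CYP4F2, was lower at C5 in scriptaid and valproic acid and was not called at C5 of the other chemicals. In scriptaid the libraries held 179, 179 and 117 CPM at C1 and 110, 72.2 and 51.5 at C5 (log2 -1.03 ± 0.38, adjusted p = 0.0465), while those at C3 held 184, 204 and 193. In valproic acid they held 97.7, 118 and 100 CPM at C1 and 60.9, 51.1 and 81.0 at C5 (log2 -0.71 ± 0.22, adjusted p = 0.0336). Both of these C5 calls were lost without batch 1 (adjusted p = 0.104 and 0.23) or batch 2 (0.336 and 0.294). CYP4F11 was also called lower at C4 of valproic acid (log2 -1.05 ± 0.22, adjusted p = 0.00252, and 0.0775 without batch 1). At C4 of apicidin it was lower by a log2 change of -0.69 ± 0.22 (adjusted p = 0.0279, and 0.169 and 0.201 without batch 1 or 2), while C5 there was not called. In vorinostat all 3 libraries at C5, with 200, 159 and 162 CPM, were above the C1 libraries (125, 125 and 158 CPM), and the change was 0.35 ± 0.17 (adjusted p = 0.0769). In tacedinaline the change was 0.36 ± 0.20 (adjusted p = 0.142), and without batch 3 it was 0.59 with an adjusted p of 0.0203 in edgeR. CYP4F2 and CYP4F11 thus had log2 changes of opposite sign in these 2 chemicals, and the difference between the genes was not tested.

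CYP4F12, which acts on arachidonic acid and on antihistamines such as ebastine, has 2 probes. The better counted probe fell at C5 in apicidin, mocetinostat and tacedinaline. In tacedinaline its libraries held 76.3, 67.2 and 61.9 CPM at C1 and 25.6, 30.8 and 38.3 at C5 (log2 -1.10 ± 0.25, adjusted p = 0.000292). In apicidin the C5 libraries held 26.2, 10.2 and 25.9 CPM (log2 -0.95 ± 0.34, adjusted p = 0.0367), and the call rested on batch 2, without which the change was -0.47 (adjusted p = 0.391). In mocetinostat the change was -1.02 ± 0.35 (adjusted p = 0.0337), and it lost the call without any of the 3 batches (adjusted p up to 0.157). The other probe had a median of 0.832 CPM at C1 and was at 0 in 44 libraries.

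**Figure D4:**
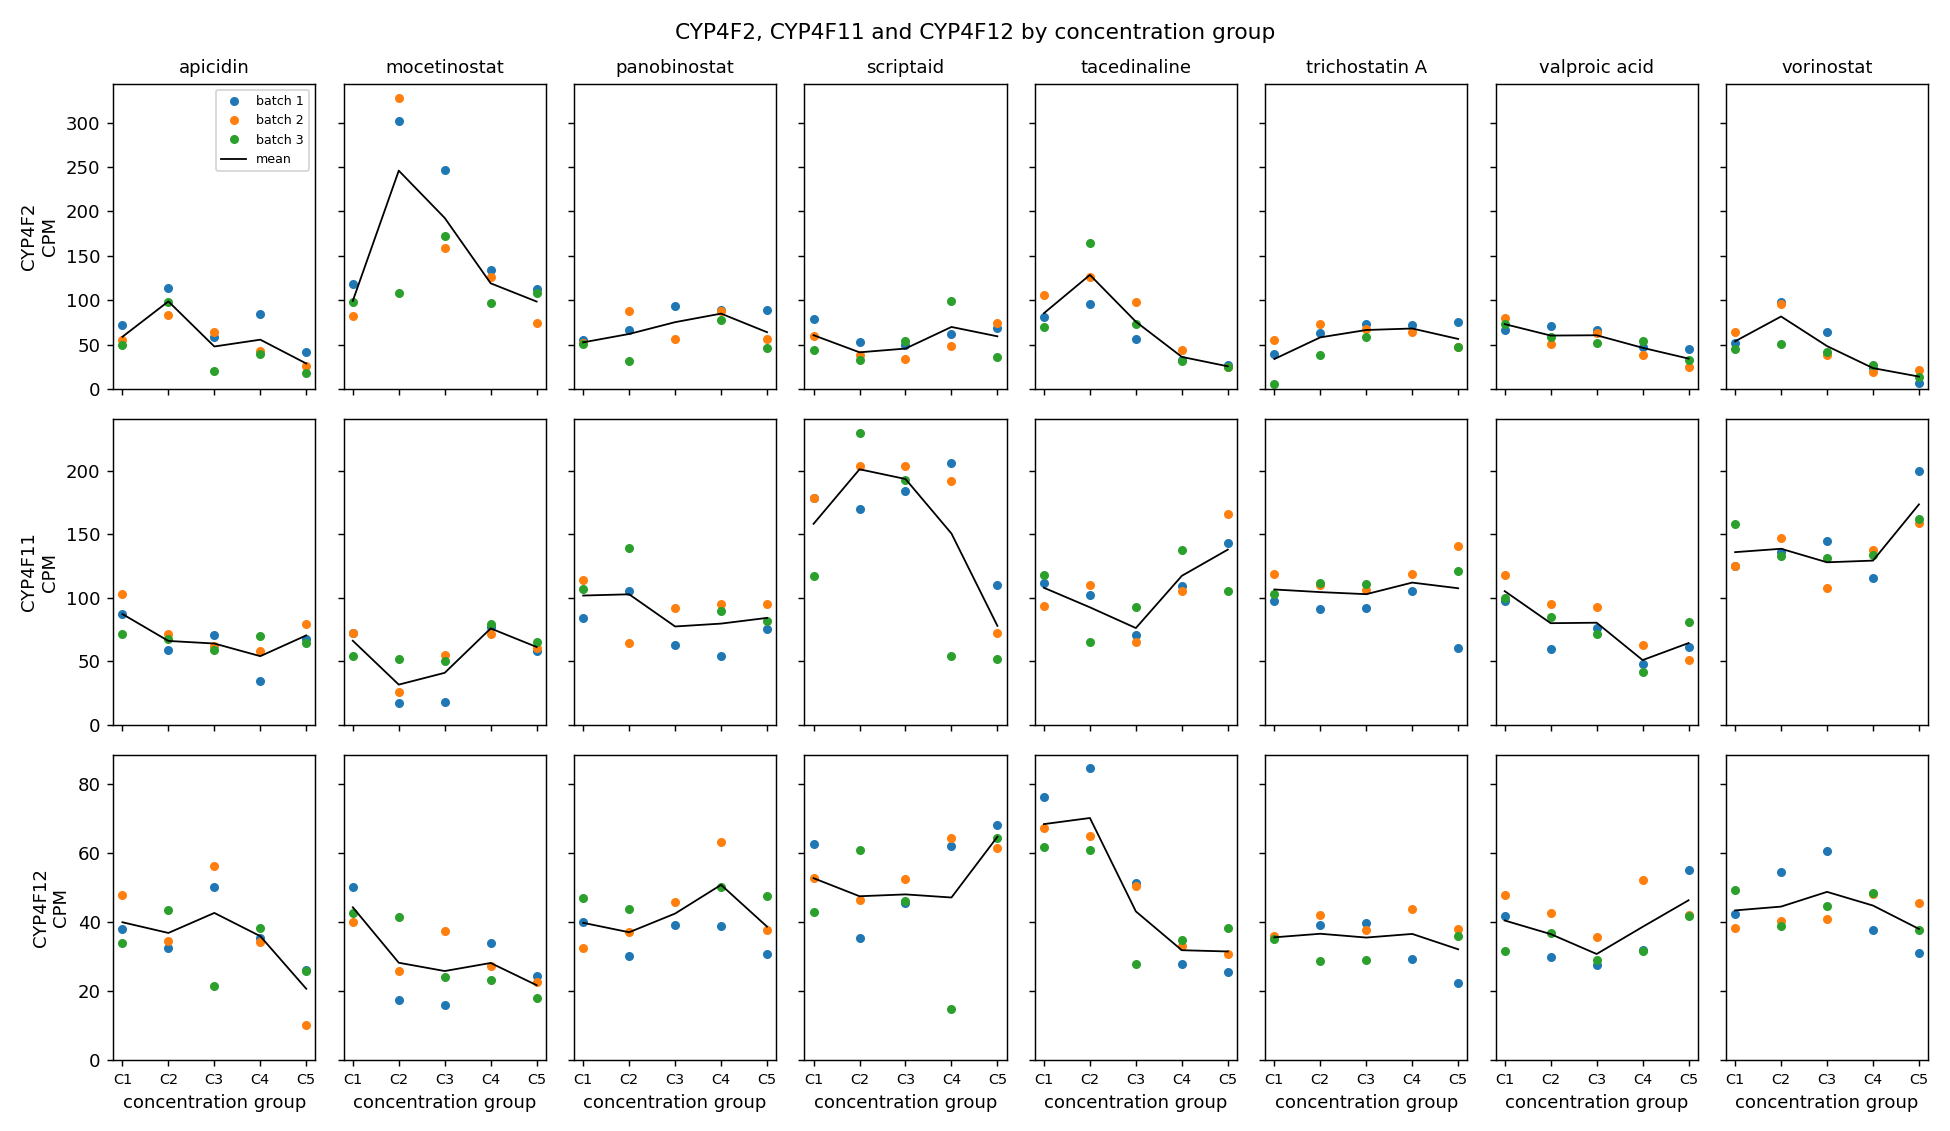
CYP4F2, CYP4F11 and CYP4F12 (the better counted probe) in CPM by concentration group in each chemical, with a point per library coloured by HepaRG batch and a line through the group means. CYP4F2 in mocetinostat reaches 302 and 328 CPM at C2 in batches 1 and 2 and is back within the C1 range or near it at C5, and CYP4F11 in vorinostat ends above C1 where CYP4F2 ends under it.

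CYP4F3, known for the inactivation of leukotriene B4 in neutrophils and with a liver form made by another splice, had few counts, with a median of 2.64 CPM at C1 and at most 39 counts in a library. In scriptaid its group sums were 39 counts at C1 and 1 at C5, a ratio of 27.4 (exact 95% interval 4.64 to 1110), and this decrease was called (adjusted p = 0.0143 in edgeR). The call was lost without batch 2 (adjusted p = 0.217). In scriptaid C2 and C3 it held 4.67, 8.02 and 6.58 CPM and 1.31, 9.18 and 10.3 CPM, against 2.24, 4.42 and 4.17 at C1. By trend CYP4F3 rose in vorinostat (log2 1.52 ± 0.58, adjusted p = 0.0336), the only upward call of a member in these edgeR fits. Its libraries there held 0.574, 2.6 and 4.82 CPM at C1 and 5.47, 4.19 and 15.0 at C5, and the call was lost without any of the 3 batches and without the filter on low counts. The CYP4F2, CYP4F3, CYP4F11 and CYP4F12 transcripts are alike in sequence, and how far their probes share targets was not tested.

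CYP4X1, a relative with no settled physiological substrate that has been studied in brain, fell at C5 in mocetinostat, scriptaid and tacedinaline. In scriptaid its libraries held 17.3, 17.4 and 13.4 CPM at C1 and 0.0, 0.607 and 2.6 at C5 (log2 -3.97 ± 0.69, adjusted p = 0.000302). In tacedinaline they held 13.3, 16.6 and 17.6 CPM at C1 and 1.63, 4.89 and 0.0 at C5 (log2 -2.78 ± 0.63, adjusted p = 0.000337). Each of the 3 chemicals already gave a call at C4. That of scriptaid had an adjusted p of 0.0488 in edgeR, with its batch 3 library included. In mocetinostat the change was -2.99 ± 0.87 (adjusted p = 0.0158), which lost the call without batch 2 (0.0875) or batch 3 (0.115). In apicidin the C5 libraries, with 18.7, 15.4 and 9.41 CPM, overlapped those at C1 (18.5, 12.2 and 19.0). Valproic acid had the highest CYP4X1 libraries at C1 (33.8, 27.6 and 30.8 CPM) and lower ones at C5 (17.8, 22.0 and 8.77 CPM), which did not pass in edgeR (log2 -0.91 ± 0.31, adjusted p = 0.0602) and did in DESeq2 (0.0345).

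The slope on log2 concentration was compared among the 3 HepaRG batches in each chemical. None of the 65 tests of a member row reached an adjusted p under 0.05 in edgeR, the lowest being 0.508, and none had an unadjusted p under 0.05. With a single library per batch and concentration, these tests can miss differences between batches, so they do not show that the batches agree. Of the 30 calls at C5, 20 held under each of the 9 alternative settings that kept the fold threshold. They comprise all calls of CYP4F22, all of CYP4V2 except panobinostat, all of CYP4A11 except mocetinostat, CYP4F2 in tacedinaline and vorinostat, CYP4F12 in tacedinaline, and CYP4X1 in scriptaid and tacedinaline. With the batch as a block, the same 30 results were called.

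Of 7 further CYP4 genes and pseudogenes, 3 had a row, and CYP4B1 alone passed the filter in all 8 chemicals. CYP4B1, a short-chain hydroxylase best known from lung and the neighbour of CYP4A11, fell at C5 in mocetinostat (log2 -5.41 ± 0.85), scriptaid (-3.48 ± 0.46), tacedinaline (-3.24 ± 0.25) and vorinostat (-2.26 ± 0.30). In mocetinostat its libraries held 123, 135 and 333 CPM at C1 and 5.35, 4.30 and 4.15 at C5. At lower concentrations it rose in vorinostat C3 (log2 1.73 ± 0.24, adjusted p = 9.18e-06) and C4 (0.85 ± 0.24) and in valproic acid C4 (1.84 ± 0.44, with overlapping groups).

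The list counts that follow are to be read beside the shares of all rows that fell or rose at C5 of the same chemical, given above. The enzymes that take over the omega-hydroxy fatty acid fell in most chemicals. Of 10 rows tested for alcohol and aldehyde dehydrogenases, 9 fell at C5 in apicidin, 10 in mocetinostat, 7 in panobinostat, 6 in scriptaid, 10 in tacedinaline, 0 in trichostatin A, 6 in valproic acid and 10 in vorinostat, and none rose. The list medians were -3.87, -5.25, -1.59, -4.05, -5.14, -0.19, -1.51 and -5.06 on the log2 scale. ADH4, an alcohol dehydrogenase with a preference for longer alcohols, went from 208 ± 39.4 CPM at C1 to 0.708 ± 0.37 at C5 of tacedinaline (SD, n = 3 each). ADH1A, ADH1B and ADH6 also fell in 7 of 8 chemicals.

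The rows of peroxisomal beta-oxidation fell in part. Of 16 to 19 rows tested, 7 fell in apicidin, 10 in mocetinostat, 5 in panobinostat, 4 in scriptaid, 10 in tacedinaline, 0 in trichostatin A, 3 in valproic acid and 7 in vorinostat, with at most 1 rising. The count in scriptaid, 4 of 18 rows, was near the 17.0% of all rows that fell there. EHHADH, the bifunctional enzyme that shortens dicarboxylic acids, fell in 7 chemicals, from 372 ± 7.48 to 65.4 ± 28.4 CPM in tacedinaline (SD, n = 3 each). SCP2, a thiolase and lipid carrier, fell in 7 chemicals by one probe and in 5 by the other.

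Of the PPAR-alpha target genes, 10 of 15 rows fell in apicidin, 11 of 16 in mocetinostat, 8 of 15 in panobinostat, 5 of 16 in scriptaid, 13 of 15 in tacedinaline, 0 of 16 in trichostatin A, 5 of 16 in valproic acid and 11 of 15 in vorinostat. Up to 4 rows rose, the most in scriptaid. The fatty acid carrier FABP1 and the bile acid enzyme CYP8B1 fell in 7 of 8 chemicals. CYP8B1 went from 15.3 ± 1.87 to 0.184 ± 0.16 CPM in mocetinostat and from 8.77 ± 2.32 to 2.18 ± 1.17 CPM in panobinostat (SD, n = 3 each). Of the list of the receptor and its partners, only the 4 rows called at C5 in the most chemicals are named. The receptor gene PPARA was not among them, and its change is not given. CREB3L3 fell in 5 chemicals and rose in scriptaid (log2 1.03 ± 0.37, adjusted p = 0.0439 in edgeR). RXRA, the partner receptor, fell in 5 chemicals, PPARD rose in 5, and the coactivator PPARGC1B rose in 5.

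The electron donors of microsomal P450 enzymes had calls in both directions. Of 8 or 9 rows tested per chemical, at most 3 fell (apicidin, where 15.0% of all rows fell). At most 3 rose (vorinostat, where 22.7% of all rows rose). Both shares lay above those of all rows, but each rests on 3 rows, and the difference was not tested. CYB5R1, a cytochrome b5 reductase, rose in 7 of 8 chemicals, with 136 ± 13.7 CPM at C1 and 483 ± 36.5 CPM at C5 of vorinostat (SD, n = 3 each). PGRMC1, a haem-binding partner of P450 enzymes, fell in 3, while PGRMC2 of the same list rose in 4. Among eicosanoid enzymes, with 8 to 11 rows tested, 4 to 6 fell in each chemical except trichostatin A (0), and the epoxygenase CYP2C8 fell in 7 of 8. In the vitamin K cycle, with 5 rows tested, at most 3 fell (mocetinostat and vorinostat), and NQO1, a quinone reductase, fell in 4 chemicals by one probe and in 2 by the other, less counted one.

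Hepatocyte markers fell in the same 7 chemicals as CYP4 rows. Of 12 rows, 11 fell at C5 in apicidin, 12 in mocetinostat, 10 in panobinostat, 12 in scriptaid, 12 in tacedinaline, 0 in trichostatin A, 11 in valproic acid and 12 in vorinostat. Their summed level in tacedinaline went from between 74800 and 99600 CPM at C1 to between 5270 and 6850 at C5. Of the 5 or 6 biliary and progenitor rows tested, none fell and up to 4 rose (tacedinaline), among them the progenitor factor SOX9, and their sum there went from between 86.9 and 122 to between 135 and 173 CPM. Of 7 to 9 stromal rows, up to 4 fell and up to 2 rose. COL3A1 and ACTA2 each fell in 7 chemicals, and COL1A1 rose in 6. By 1 of its probes DCN, a matrix proteoglycan, fell in 6 chemicals, trichostatin A among them (log2 -1.65 ± 0.26, adjusted p = 0.0353 in edgeR). That probe was 1 of the 2 rows that fell there among 12993 tested, with the C1 library of batch 3 included. The part of these shifts in the CYP4 results was not tested, and fewer hepatocyte-like cells cannot be told apart from less RNA per cell in bulk lysates.

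**Figure D5:**
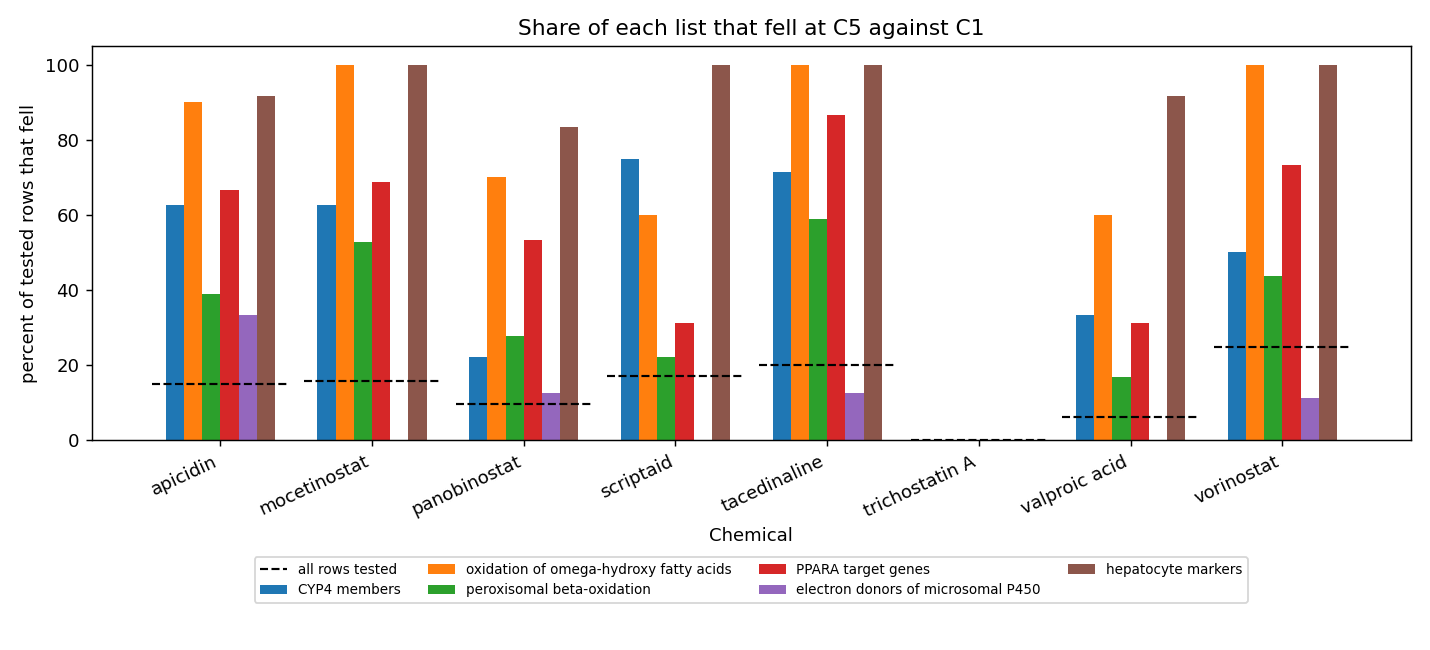
Percent of the tested rows that fell at C5 against C1 (bars, starting at 0) in each chemical, with the percent of all rows tested that fell as a dashed line. The bars are the CYP4 rows, oxidation of omega-hydroxy fatty acids, peroxisomal beta-oxidation, PPAR-alpha targets, electron donors and hepatocyte markers, and in trichostatin A all bars of these lists are at 0. Hepatocyte markers are at 10 of 12 rows or more in the other 7 chemicals, and the CYP4 rows lie above the dashed line there. The CYP4 bar of panobinostat is 2 of 9 rows, and CYP4V2, among these 2, lay at the fold threshold.

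For each member row tested in all chemicals, the rows most alike were sought by Pearson correlation of mean log2 CPM over the 40 groups, among 11280 other rows. CYP4V2 was most like C4BPB (r = 0.965), a complement regulator, MDM2 (0.962), the ligase of p53, and SLC30A10 (0.961), a manganese exporter. CYP4F2 was most like FASN (0.802), INSIG1 (0.778) and FADS1 (0.765), genes of fatty acid synthesis, sterol sensing and desaturation. CYP4F22 was most like SERPINA3 (0.825), APOA5 (0.806) and LAMB1 (0.806), CYP4F11 like PTRHD1 (0.884), and CYP4X1 like PHLDB1 (0.859). CYP4F3 and CYP4F12 had no row above 0.68 and 0.757. These groups share batches, plates and chemicals, so the values are descriptions without a test.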

How the data were processed

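The authors deposited raw read counts per TempO-Seq probe, as whole numbers without normalisation. Per the labels, the submitters' processing notes name bcl2fastq 2.20.422, fastp 0.23.2, STAR 2.7.10b and DESeq2 1.38.0, with no genome build. Of 22069 rows, the last (SEC13) lacked values in 88 of 118 libraries and was left out. Total counts per library were 1061359 to 5250260.

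Each chemical was fitted in R 4.3.3 with edgeR 4.0.16 (filterByExpr, TMM, quasi-likelihood F tests), comparing C2 to C5 with C1 and testing the slope on log2 concentration. P-values were adjusted over all rows tested (Benjamini-Hochberg), and calls needed an adjusted p under 0.05 and a 1.5-fold change. The SE was taken as |log2 change| / √F. CPM are counts per 1000000 on the TMM scale of that fit. The paper listed for the series reports a different experiment and was used for nothing but style. Groups and HepaRG batches come from the labels. Batch numbers pair the samples by label: the median r of deviations from group means was 0.0417 for 232 same-batch pairs and -0.0184 for 464 others. P-values measure the spread between these libraries, which come from 1 cell line.

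Alternatives were DESeq2 1.42.0, other size factors (RLE), no filter, the replicate block, leaving out a replicate, rows summed by gene, all libraries in 1 fit and a 2-fold threshold. The scripts were tested on simulated data of tacedinaline, with changes only at C5 and only in well counted rows. Rows with few counts were not covered by that simulation. Levels at 0 were bounded by 3 counts over the group, and ratios of sums have exact 95% intervals. All 10 member rows are named, with at most 4 rows of each other list, namely those called at C5 in most chemicals. Some of these are not reported here. Members and lists were chosen with earlier results of these data known. Likeness used log2 CPM with a prior count of 2.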

Additional observations from a re-analysis of the deposited data

How the results depend on the processing

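Of the 30 member calls at C5, 20 held under each of the 9 alternatives that kept the 1.5-fold threshold, and no call changed sign. With the replicate block, the C5 counts were those of the fit without it (5, 5, 2, 6, 5, 0, 3 and 4 falling from apicidin to vorinostat in alphabetical order), and the trend count changed only in panobinostat, from 2 to 3, so the block changed no call at C5. In panobinostat, 1 row instead of 2 fell at C5 with DESeq2, with RLE size factors, without the filter, with all libraries in 1 fit and at a 2-fold threshold. The row lost in the first 4 of these was CYP4V2, which lay at the 1.5-fold threshold. In apicidin the 2-fold threshold left 3 of 5 rows. In tacedinaline, 6 rows instead of 5 fell at C5 without the filter and with all libraries in 1 fit. In trichostatin A, DESeq2 and the unfiltered fit each called 1 falling row at C5 (CYP4F22) and 1 by trend, as did summing rows by gene and leaving out C1 replicate 3 by trend. Without the filter the upward trend count was 0 instead of 1.

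Leaving out a replicate gave 3 to 5 falling rows at C5 in apicidin, 2 to 3 in mocetinostat (5 in the full fit), 1 to 1 in panobinostat, 4 to 6 in scriptaid, 5 to 6 in tacedinaline, 0 to 0 in trichostatin A, 1 to 3 in valproic acid and 4 to 4 in vorinostat, and 0 to 1 rising rows over the 8 chemicals. By trend it gave 3 to 4, 3 to 5, 1 to 2, 0 to 3, 5 to 6, 0 to 0, 1 to 4 and 3 to 4 falling rows in the same order, and 0 to 0 rising. In mocetinostat C2 without replicate 3, 2 rows fell and 1 rose, against 0 and 0 with it. That setting was added with the C2 values known, so its calls are no test. The cause of these shifts was not tested, apart from the smaller number of libraries.

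Counts limit CYP4A11 above C2, CYP4A22, CYP4F3 and the second CYP4F12 probe, where several groups hold 3 counts or fewer. Without solvent controls, a change complete at C1 would not show.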
